A study of Homo sapiens with 15 samples.

Results

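Expression of 7 genes of phosphoinositide 3-kinase (PI3K) signalling was followed across 9 human lymphoid cell lines. They were the catalytic subunit genes PIK3CB, PIK3CD and PIK3CG, the regulatory subunit genes PIK3R1 and PIK3R5, and the inositol phosphatase genes INPP5D and INPP4B. The list held 9 genes. A gene was taken where at least 1 probe set carried its symbol alone in the platform annotation, and stands here with whichever of its probe sets was brightest on average over the 15 arrays. This gave 7 genes with 20 probe sets among the 19735 genes of the series, and the other 2 listed genes were not analysed here.

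The arrays, Affymetrix U133 Plus 2.0, held biotin-labelled total RNA of cell lines for which no treatment is named, and the authors' values are log2 signals. The Hodgkin group held 10 arrays of 6 lines labelled classical Hodgkin lymphoma: L428, L1236, KM-H2 and HDLM2 with 2 arrays each, and L540 and L540Cy with 1 each. L540Cy is known from background as a subline of L540, so both were averaged as 1 line of origin, which left 5 Hodgkin lines. From background, L428, L1236 and KM-H2 derive from B cells and HDLM2 and L540 from T cells. The non-Hodgkin group held 5 arrays of 3 lines: Namalwa (Burkitt lymphoma, 2 arrays), SU-DHL-4 (B non-Hodgkin lymphoma, 1 array) and Reh (B acute lymphoblastic leukaemia, 2 arrays). The series' design text calls the duplicates biological. Each line is the culture of 1 tumour, so a line stands for itself and not for a disease. All groups are bulk RNA, in which fewer cells of a kind and less RNA per cell cannot be told apart.

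Class I PI3Ks phosphorylate a membrane lipid to make PIP3, which recruits kinases such as AKT and BTK to the membrane. The beta and delta catalytic subunits, encoded by PIK3CB and PIK3CD, bind the regulatory subunits encoded by PIK3R1 and its relatives and act below antigen and cytokine receptors. The gamma subunit, encoded by PIK3CG, binds the adaptor encoded by PIK3R5 or its relative PIK3R6 and acts mainly below G protein-coupled receptors. INPP5D encodes SHIP1, which removes the phosphate at the fifth position of PIP3, and INPP4B encodes the enzyme that then removes the phosphate at the fourth position. In B cells PI3K delta transmits signals of the B cell receptor, and SHIP1 limits them.

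Depth does not apply to these arrays, and their number limits the precision. Array medians lay between 5.50 and 5.57 log2 and lower quartiles between 4.24 and 4.32 log2. Over all genes, duplicates had an SD of 0.17 to 0.26 log2 in Hodgkin lines, against 0.37 in Namalwa and 0.44 in Reh. The array labelled Reh replicate 1 stood apart: in 22 genes whose signal in SU-DHL-4 lay more than 3 log2 above all arrays but this one, it was a median of 4.0 log2 above Reh replicate 2. Differences of the members between Hodgkin and non-Hodgkin lines, and several between single lines, are therefore also given without it. Marker levels, line orders, correlations and most values of other pathway genes include it. B cell markers separated the groups as labelled: the mean of 9 markers lay between 5.85 and 6.70 log2 in the Hodgkin lines and between 9.93 and 11.18 log2 in the non-Hodgkin lines. TNFRSF8, which encodes CD30, was at 9.61 to 12.70 log2 in the Hodgkin lines and at 5.71 to 6.51 log2 in the others. The T cell marker CD3E was at 5.04 to 5.55 log2 in the Hodgkin lines, HDLM2 and L540 included, and at 5.35 to 5.76 log2 in the others. The mean of all 10 T cell markers was 6.35 log2 in HDLM2, 5.94 in L540 and 5.67 in L540Cy, against 5.17 in L428, 5.17 in L1236 and 5.82 in KM-H2, and 5.42 to 5.56 log2 in the non-Hodgkin lines. The mean of 7 NK cell markers was 6.20 to 6.36 log2 in HDLM2, L540 and L540Cy and 5.12 to 5.40 log2 in the other 6 lines. The myeloid marker LYZ lay between 3.98 and 4.32 log2 in all 9 lines. The Hodgkin lines were higher in 2 of 8 markers of the Reed-Sternberg tumour cell, and 0 of 10 T cell, 9 myeloid, 7 NK cell and 12 stromal and epithelial markers passed in either direction.

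The promoters of PIK3CG and INPP5D are shown first, since these 2 members had higher signals in the 3 non-Hodgkin lines than in most Hodgkin lines. Each window runs from 250 bases before to 50 bases after the gene's start in RefSeq (GRCh38.p14), and is printed 5′ to 3′ on the gene's strand. PIK3CG lies on the plus strand, with its window at chr7:106865229-106865528, and INPP5D on the plus strand, with its window at chr2:233060092-233060391. Capitals mark matches to short motifs of B cell and blood cell transcription factors, searched on both strands: the PU box GAGGAA, the EBF core CCCNNGGG, the octamer ATGCAAAT, the RUNX motif TGTGGT and the E box CAGCTG.
PIK3CG: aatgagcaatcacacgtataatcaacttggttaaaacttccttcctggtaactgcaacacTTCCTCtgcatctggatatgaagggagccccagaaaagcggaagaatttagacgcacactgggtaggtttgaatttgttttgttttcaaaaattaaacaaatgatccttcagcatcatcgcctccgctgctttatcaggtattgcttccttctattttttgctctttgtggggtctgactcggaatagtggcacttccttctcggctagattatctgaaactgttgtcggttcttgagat
INPP5D: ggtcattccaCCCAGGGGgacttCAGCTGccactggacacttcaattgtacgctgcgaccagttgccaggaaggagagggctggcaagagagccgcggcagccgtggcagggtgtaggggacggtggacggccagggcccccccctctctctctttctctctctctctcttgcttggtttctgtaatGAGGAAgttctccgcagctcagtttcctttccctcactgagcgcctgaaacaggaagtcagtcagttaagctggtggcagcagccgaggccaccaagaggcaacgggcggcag
The PIK3CG window held 1 match, a PU box on the opposite strand at position -190, counted from the start. The INPP5D window held 3 matches, none of which overlap: an EBF core, an E box and a PU box, at positions -240, -227 and -63. Among all 35116 promoter windows of this length, 27.9% held a PU box, 19.1% an EBF core, 17.9% this E box, 13.1% the RUNX motif and 1.77% the octamer. All 7 members had RefSeq windows, 19 in total, of which 11 held a PU box, 3 an EBF core, 4 the E box, 3 the RUNX motif and 0 the octamer. These windows are not independent, since a gene can have several. The INPP4B windows at chr4:142305783-142306082 and chr4:142305895-142306194 overlap and share a PU box that was counted in both. By gene, 6 of the 7 members had a PU box. The shares given for all promoters are per window and cannot be set beside that count, and no share per gene was counted. A match is a stretch of letters and no evidence of binding.

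**Figure D1:**
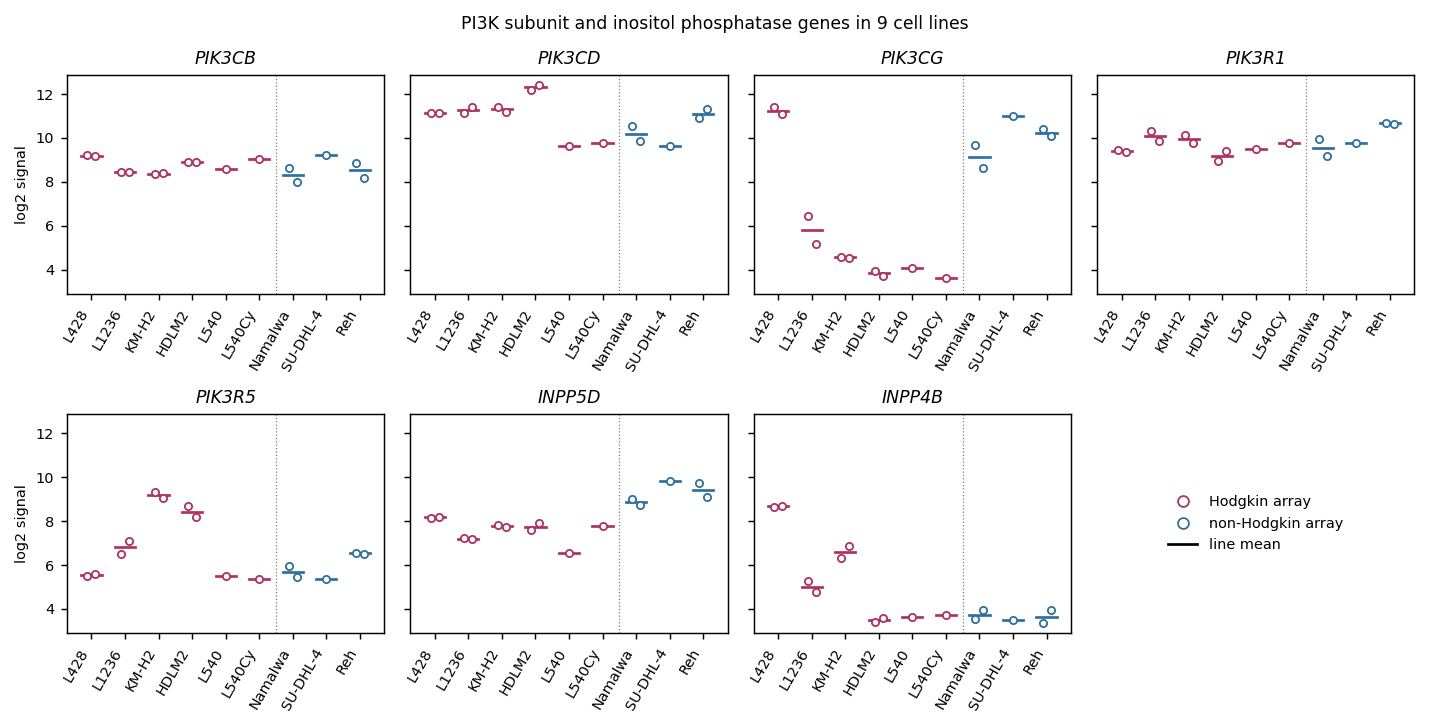
Log2 signal (y axis) of the 7 members in each array (points) of the 9 lines (x axis), with line means as bars, Hodgkin lines (red) left of the dotted line and non-Hodgkin lines (blue) right of it. INPP5D is lower in every Hodgkin line than in every non-Hodgkin line, PIK3CG is high in L428 alone among Hodgkin lines, and PIK3CB varies little.

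The first question was which members differed among the lines at all. In the F test over all 15 arrays with 1 mean per line, 6 of the 7 members passed at an adjusted p under 0.05, beside 52.0% of all genes. The spread of this test comes from the 6 duplicated lines. The 3 lines without a duplicate were taken to have that spread too. PIK3CG varied most: its line means spanned 7.61 log2, a span larger than that of 99.2% of all genes (adjusted p = 8.41e-07). INPP4B spanned 5.19 log2 (adjusted p = 1.84e-06), PIK3R5 3.85 log2 (6.62e-06), INPP5D 3.27 log2 (4.38e-05) and PIK3CD 2.68 log2 (0.00018). PIK3R1 spanned 1.48 log2 (adjusted p = 0.0233). PIK3CB spanned 0.92 log2 and did not pass (adjusted p = 0.0755). The call of PIK3R1 ended without either array of L428 (adjusted p = 0.052 and 0.0557), without HDLM2 replicate 1 (0.0553), without either array of Reh (0.0776 and 0.0699), and with the most variable probe set (0.104). PIK3CB passed without Reh replicate 1 (0.0144), Reh replicate 2 (0.0231) or Namalwa replicate 1 (0.0233).

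The second question was whether the Hodgkin lines as a group differed from the others, with the line as the replicate. INPP5D, the gene of SHIP1, was the 1 member of 7 that passed, beside 1.36% of all genes. It fell by 1.75 ± 0.30 log2 in the Hodgkin lines (SE, a 3.38-fold lower signal, adjusted p = 0.045 with limma). No member was higher at this threshold. The median difference over the 7 members was 0.06 log2, against -0.02 log2 over all genes.

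INPP5D had 8.13 and 8.21 log2 in L428, 7.21 and 7.19 in L1236, 7.82 and 7.71 in KM-H2, 7.59 and 7.91 in HDLM2, 6.56 in L540 and 7.76 in L540Cy, against 9.0 and 8.72 in Namalwa, 9.83 in SU-DHL-4 and 9.72 and 9.09 in Reh. All 10 Hodgkin arrays lay below all 5 non-Hodgkin arrays, with the highest Hodgkin array at 8.21 and the lowest non-Hodgkin array at 8.72 log2. Arrays of the same line are not independent. The share of all genes with such a separation was not counted, here or for the members below. The line means averaged 7.61 ± 0.43 log2 in the Hodgkin lines (SD, n = 5) and 9.36 ± 0.48 log2 in the non-Hodgkin lines (SD, n = 3). Of the other INPP5D probe sets, 1 had nearly the same difference (-1.71 log2) and the other, a dim one at a mean of 4.56 log2, had -0.49 log2. The adjusted p of INPP5D was close to the threshold. It was 0.0666 without Reh replicate 1, 0.052 without HDLM2 replicate 1, 0.0587 without Namalwa replicate 1 and 0.0782 without L540Cy, and 0.0622 to 0.144 when any line of origin but L428 was left out. The difference stayed between -2.01 and -1.32 log2 over the 32 alternatives.

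Between the groups, B cell markers differed in the same direction as INPP5D. Among the Hodgkin lines, L428 had the highest INPP5D signal and the lowest mean of the B cell markers, and KM-H2 the highest mean. Of 9 B cell markers tested, 3 were lower in the Hodgkin lines and 0 higher, with a median difference of -4.12 log2, and CD79A, a signalling chain of the B cell receptor, fell by 6.36 ± 0.17 log2 (SE, adjusted p = 6.03e-06). The part of this shift in the difference of INPP5D was not tested.

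**Figure D2:**
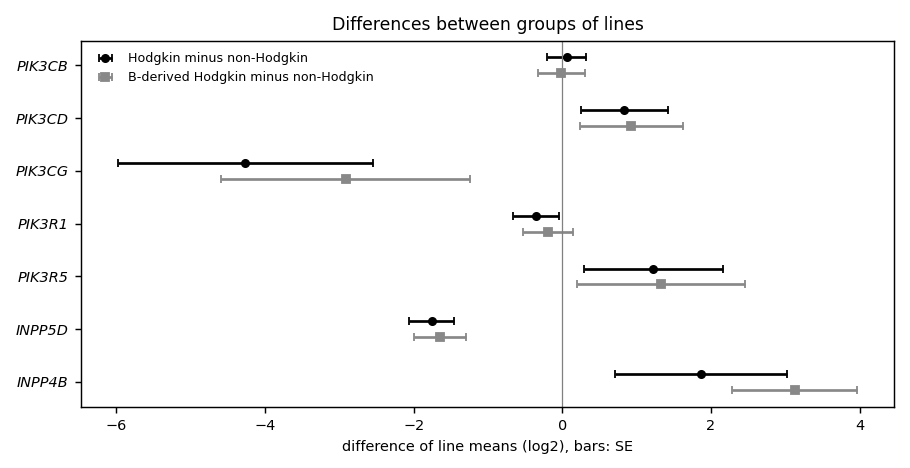
Difference of line means in log2 (x axis, bars are SE) for each member (y axis), for the 5 Hodgkin lines minus the 3 non-Hodgkin lines (black) and for the 3 B-derived Hodgkin lines minus the 3 non-Hodgkin lines (grey). INPP5D, at -1.75 log2, has a short bar beside its size, while PIK3CG, at -4.26 log2, has an SE of 1.71 log2.

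PIK3CG, the gene of the gamma catalytic subunit, had the largest difference of the 7 members and did not pass, and 1 Hodgkin line, L428, was as high as the non-Hodgkin lines. It had 11.41 and 11.09 log2 in L428, 6.44 and 5.18 in L1236, 4.59 and 4.55 in KM-H2, 3.95 and 3.73 in HDLM2, 4.07 in L540 and 3.64 in L540Cy, against 9.66 and 8.61 in Namalwa, 11.01 in SU-DHL-4 and 10.41 and 10.07 in Reh. The 8 Hodgkin arrays outside L428 lay below all non-Hodgkin arrays, and 5 of the 6 Hodgkin lines below 6 log2. The group means were 5.86 ± 3.11 log2 (SD, n = 5) in the Hodgkin lines and 10.13 ± 0.94 log2 (SD, n = 3) in the non-Hodgkin lines, a difference of -4.26 ± 1.71 log2 (SE, adjusted p = 0.32). Without L428 the difference was -5.61 log2 and passed (adjusted p = 0.0183). This was the only pass in 32 alternatives, and the line left out is the 1 that ran against the difference. Without Reh replicate 1 the difference was -4.21 log2 and did not pass (adjusted p = 0.348).

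The pattern of PIK3CG was similar in its 3 probe sets, but Namalwa was only at 6.47 and 5.56 log2 in the dimmer ones. The latter value is at the array median. L428 was the highest line in each of them, and each had a negative difference, of -2.29, -2.33 and -4.26 log2. KM-H2, at 4.57 log2, lay near the lower quartile of the arrays, and L540, HDLM2 and L540Cy, at 4.07, 3.84 and 3.64 log2, lay below it, where the signals give little order. The duplicates of L1236 were the least alike in the representing probe set, with an SD of 0.89 log2 (n = 2).

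**Figure D3:**
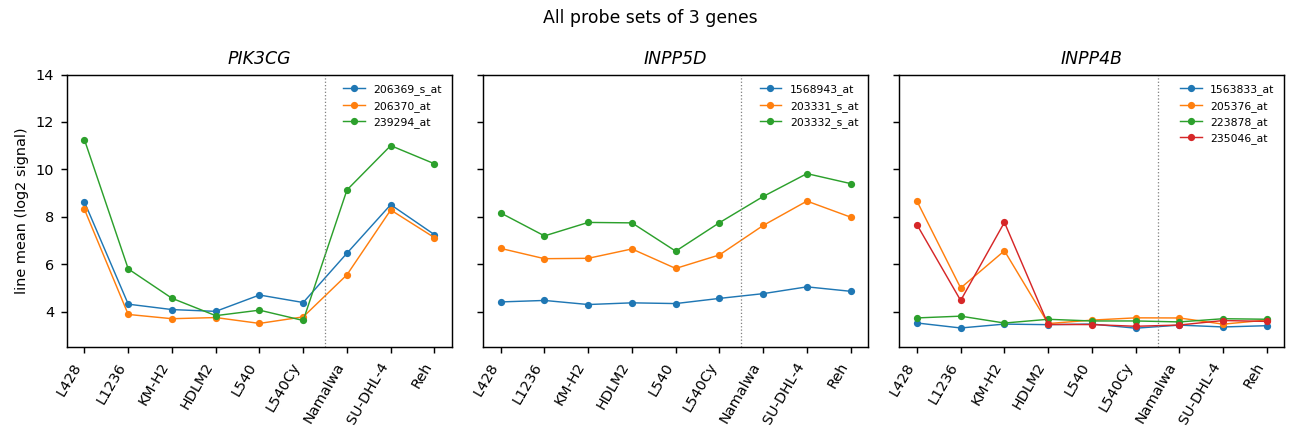
Line means in log2 (y axis) of every probe set of PIK3CG, INPP5D and INPP4B (lines and points) over the 9 cell lines (x axis), Hodgkin lines left of the dotted line. All 3 probe sets of PIK3CG are higher in L428 and in the non-Hodgkin lines than in the other Hodgkin lines. Namalwa is at 5.56 log2 in the dimmest of them. For INPP4B, 2 of the 4 probe sets stay below 4 log2 in all lines.

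INPP4B, the gene of the phosphatase that follows SHIP1, was brightest in the 3 B-derived Hodgkin lines, although no test between groups of lines passed with the line as the replicate. It had 8.63 and 8.70 log2 in L428, 5.26 and 4.75 in L1236, 6.30 and 6.85 in KM-H2, 3.42 and 3.59 in HDLM2, 3.65 in L540 and 3.75 in L540Cy, against 3.54 and 3.95 in Namalwa, 3.48 in SU-DHL-4 and 3.34 and 3.97 in Reh. All 6 arrays of L428, L1236 and KM-H2 lay above the other 9 arrays. L1236 was dim, however, at a mean of 5.01 log2, below the array medians. It was at 4.48 log2 in the other INPP4B probe set that varied, and the remaining probe sets were dim in every line. The difference was 1.86 ± 1.16 log2 between all Hodgkin and non-Hodgkin lines (SE, adjusted p = 0.526). Between the 3 B-derived Hodgkin lines and the 3 non-Hodgkin lines it was 3.12 ± 0.85 log2 (SE, adjusted p = 0.2), where 0 of 7 members passed beside 0.917% of all genes. Between the 2 T-derived and the 3 B-derived Hodgkin lines it was -3.15 ± 0.95 log2 (SE, adjusted p = 0.464), where 0 of 7 members passed beside 0.198% of all genes. With single arrays fitted and a random block for each line, INPP4B passed in both, with an adjusted p of 0.0092 between B-derived Hodgkin and non-Hodgkin lines and 0.0338 between T-derived and B-derived Hodgkin lines. That fit took a common correlation of duplicates for all genes and passed many more genes. It called 1049 of 19735 genes in the first comparison, in place of 181, and 308 in the second, in place of 39.

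In the same comparisons INPP5D differed by -1.65 ± 0.35 log2 between B-derived Hodgkin and non-Hodgkin lines (SE, adjusted p = 0.12, and 0.0231 in that fit of single arrays), and PIK3CG by -2.92 ± 1.68 log2 (SE, adjusted p = 0.516). PIK3CG differed by -3.36 ± 1.88 log2 between T-derived and B-derived Hodgkin lines (SE, adjusted p = 0.767). Without Reh replicate 1 the differences between B-derived Hodgkin and non-Hodgkin lines were 3.02 log2 for INPP4B, -1.55 log2 for INPP5D and -2.86 log2 for PIK3CG, none of which passed. At an unadjusted p under 0.05 the first comparison held 2554 genes and the second 1478 of the 19735 tested. Without L428, PIK3CG differed by -4.94 log2 between B-derived Hodgkin and non-Hodgkin lines and passed (adjusted p = 0.0478). This was again the only pass in 32 alternatives, with the line left out that ran against the difference.

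The remaining members showed no group difference past the threshold. PIK3CD, the gene of the delta subunit that is typical of leukocytes, was bright in all lines, between 9.63 and 12.43 log2 in the Hodgkin arrays and between 9.63 and 11.33 log2 in the non-Hodgkin arrays (difference 0.83 ± 0.58 log2, SE, adjusted p = 0.567). PIK3R5, the gene of the gamma subunit's adaptor, had 1.23 ± 0.94 log2 (SE, adjusted p = 0.601). PIK3R1, the gene of the main regulatory subunit, had 9.44 and 9.35 log2 in L428, 10.32 and 9.87 in L1236, 10.11 and 9.76 in KM-H2, 8.96 and 9.40 in HDLM2, 9.48 in L540 and 9.77 in L540Cy, against 9.95 and 9.17 in Namalwa, 9.78 in SU-DHL-4 and 10.69 and 10.64 in Reh. Its groups overlapped, with a difference of -0.35 ± 0.31 log2 (SE, adjusted p = 0.649). PIK3CB, the gene of the widely expressed beta subunit, had 9.23 and 9.17 log2 in L428, 8.46 and 8.46 in L1236, 8.35 and 8.40 in KM-H2, 8.90 and 8.89 in HDLM2, 8.59 in L540 and 9.03 in L540Cy, against 8.64 and 8.0 in Namalwa, 9.24 in SU-DHL-4 and 8.87 and 8.17 in Reh. Its groups also overlapped, the difference was 0.06 ± 0.27 log2 (SE, adjusted p = 0.942), and its sign depended on the probe set and on single arrays. Without Reh replicate 1 the differences were 1.76 log2 for INPP4B, 0.76 log2 for PIK3CD, 1.23 log2 for PIK3R5, -0.35 log2 for PIK3R1 and 0.17 log2 for PIK3CB, none of which passed.

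The third question was which Hodgkin line stood apart for which member. Each Hodgkin line of origin was compared with the average of the remaining 4 in the fit of all arrays. These tests measure the spread between duplicates, so many genes pass: 23.0% of all genes for L428, 23.1% for L1236, 27.1% for KM-H2, 25.1% for HDLM2 and 24.1% for L540 with L540Cy. Of the 7 members, 4 passed for L428, 0 for L1236, 3 for KM-H2, 4 for HDLM2 and 5 for L540 with L540Cy.

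L428 was higher than the other Hodgkin lines in PIK3CG by 6.73 ± 0.32 log2 (SE, adjusted p = 4.75e-07) and in INPP4B by 3.97 ± 0.22 log2 (SE, adjusted p = 1.14e-06). PIK3R5 differed by -1.92 ± 0.20 log2 there (SE, adjusted p = 8.17e-05). L428 thus had the brightest PIK3CG of the Hodgkin lines beside a PIK3R5 signal of 5.52 and 5.58 log2, the level of the lines in which that probe set was dimmest. INPP5D was 0.70 ± 0.17 log2 higher in L428 (SE, adjusted p = 0.0135), a call that ended without either L428 array (adjusted p = 0.0919 and 0.137) and when all probe sets were averaged (0.36 log2, adjusted p = 0.117). PIK3CB, with a difference of 0.56 log2, missed the threshold (adjusted p = 0.0705) and passed without either array of Namalwa (0.0349) or of Reh (0.025).

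PIK3R5 was bright in KM-H2 and HDLM2. It had 5.52 and 5.58 log2 in L428, 6.52 and 7.10 in L1236, 9.33 and 9.08 in KM-H2, 8.69 and 8.18 in HDLM2, 5.50 in L540 and 5.38 in L540Cy, against 5.95 and 5.46 in Namalwa, 5.35 in SU-DHL-4 and 6.53 and 6.52 in Reh. KM-H2 exceeded the other Hodgkin lines by 2.64 ± 0.20 log2 (SE, adjusted p = 6.97e-06) and HDLM2 by 1.68 ± 0.20 log2 (SE, adjusted p = 0.00017). In L540 with L540Cy it differed by -2.06 ± 0.20 log2 (SE, adjusted p = 4.67e-05). The other 2 PIK3R5 probe sets moved less, with spans of 1.13 and 0.61 log2. As the mean of all probe sets, PIK3R5 exceeded the other Hodgkin lines by 1.20 log2 in KM-H2 and 0.86 log2 in HDLM2, and differed by -0.98 log2 in L428 and -0.82 log2 in L540 with L540Cy, all passing.

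**Figure D4:**
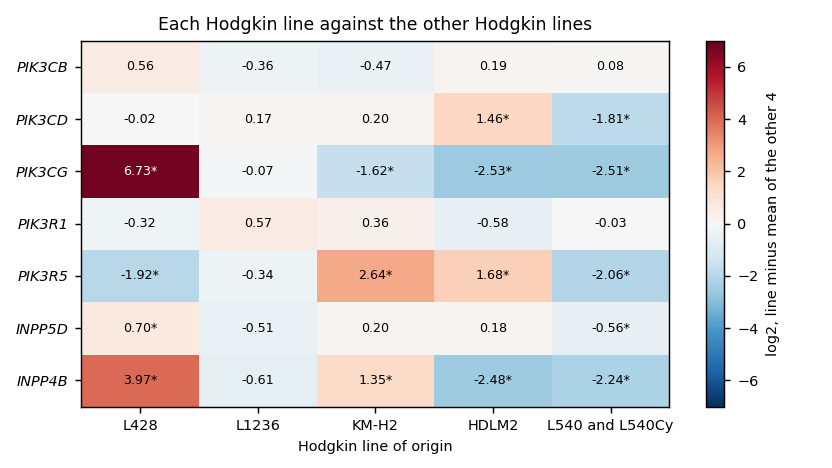
Difference in log2 (colour and number) of each Hodgkin line of origin (x axis) from the mean of the other 4, for the 7 members (y axis), with an asterisk where the adjusted p is under 0.05. L428 stands out for PIK3CG at 6.73 log2 and INPP4B at 3.97 log2, KM-H2 for PIK3R5 at 2.64 log2, and L1236 has no asterisk.

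INPP4B was 1.35 ± 0.22 log2 higher in KM-H2 (SE, adjusted p = 0.00106), and differed by -2.48 ± 0.22 log2 in HDLM2 (SE, adjusted p = 2.54e-05) and by -2.24 ± 0.22 log2 in L540 with L540Cy (SE, adjusted p = 4.87e-05). Which of L428 and KM-H2 was higher depended on the probe set. The second bright probe set was highest in KM-H2, at 7.77 log2, just above L428, at 7.67 log2. With it, the difference from the mean of the other Hodgkin lines was 3.01 log2 for KM-H2 and 2.89 log2 for L428. L1236 differed by -0.61 ± 0.22 log2 and did not pass (SE, adjusted p = 0.0753), and it passed with that probe set (-1.11 log2, adjusted p = 0.000296) and without either array of Reh (0.0433). PIK3CG differed by -1.62 log2 in KM-H2, -2.53 log2 in HDLM2 and -2.51 log2 in L540 with L540Cy (adjusted p = 0.00408, 0.000291 and 0.000329), each time against a mean that includes L428.

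Among the Hodgkin lines PIK3CD was highest in HDLM2 and lowest in L540, both T-derived, and SU-DHL-4 was as low as L540. It had 11.12 and 11.13 log2 in L428, 11.15 and 11.41 in L1236, 11.42 and 11.18 in KM-H2, 12.19 and 12.43 in HDLM2, 9.63 in L540 and 9.75 in L540Cy, against 10.52 and 9.84 in Namalwa, 9.63 in SU-DHL-4 and 10.89 and 11.33 in Reh. HDLM2 was 1.46 ± 0.19 log2 higher than the other Hodgkin lines (SE, adjusted p = 0.000341). L540 with L540Cy differed by -1.81 ± 0.19 log2 (SE, adjusted p = 9.07e-05). The second PIK3CD probe set was also highest in HDLM2, was lowest in L540Cy and followed the first over the 15 arrays (r = 0.94 across arrays, a description). It did not place SU-DHL-4 as low: SU-DHL-4 was at 6.49 log2, above L540 at 6.06, Namalwa at 5.98 and L540Cy at 5.90 log2.

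INPP5D differed by -0.56 ± 0.17 log2 in L540 with L540Cy from the other Hodgkin lines (SE, adjusted p = 0.036). That call ended without either array of L428, L1236 or KM-H2 and without HDLM2 replicate 2 (adjusted p = 0.0567 to 0.0706), after a second normalization (0.0806) and when all probe sets were averaged (-0.28 log2, adjusted p = 0.214). The array of L540 was low, at 6.56 log2, whereas that of L540Cy, at 7.76 log2, was level with KM-H2 and HDLM2. In L1236 the INPP5D difference of -0.51 log2 missed the threshold (adjusted p = 0.0567) and passed without either array of Reh (0.0174). PIK3R1, which passed for no Hodgkin line, had 0.57 log2 in L1236 and -0.58 log2 in HDLM2 (adjusted p = 0.0956 and 0.0825), and both passed without either array of Namalwa (0.037 and 0.0311). PIK3CB had -0.47 log2 in KM-H2 (adjusted p = 0.12) and passed without either array of Reh (0.049). The subline L540Cy was set against L540 on 1 array each. INPP5D was at 7.76 log2 in L540Cy and 6.56 log2 in L540, a difference of 1.20 ± 0.30 log2 that did not pass (SE, adjusted p = 0.104), and 0 of 7 members passed beside 1.49% of all genes. It passed without either array of Reh (adjusted p = 0.0342).

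Among the non-Hodgkin lines the calls were few and close to the threshold. Of the 7 members 2 passed for Reh against Namalwa (15.9% of all genes), 2 for SU-DHL-4 against Namalwa (9.78%) and 2 for Reh against SU-DHL-4 (7.91%). PIK3R1 had 10.69 and 10.64 log2 in Reh, its highest line, against 9.95 and 9.17 log2 in Namalwa, and Reh exceeded Namalwa by 1.10 ± 0.27 log2 (SE, adjusted p = 0.0219). PIK3CD was 0.93 ± 0.24 log2 higher in Reh than in Namalwa (SE, adjusted p = 0.0278) and 1.48 ± 0.30 log2 higher in Reh than in SU-DHL-4 (SE, adjusted p = 0.0135). Both calls of Reh against Namalwa ended without Namalwa replicate 2 (adjusted p = 0.132 for PIK3R1 and 0.165 for PIK3CD) and without Reh replicate 2 (0.0666 and 0.151), and that of PIK3R1 also without Reh replicate 1 (0.0641) and with the most variable probe set (0.0683). Without that array PIK3CD was 1.15 log2 higher in Reh than in Namalwa (0.0203) and 1.70 log2 higher than in SU-DHL-4 (0.00586). PIK3CB differed by -0.72 log2 between Reh and SU-DHL-4 and missed the threshold (adjusted p = 0.223), but passed without that array (-1.07 log2, adjusted p = 0.0305). INPP5D differed by 0.54 log2 between Reh and Namalwa (adjusted p = 0.128) and passed without Reh replicate 2 (0.85 log2, 0.0233). PIK3R5 differed by 0.82 log2 between Reh and Namalwa (adjusted p = 0.0534) and passed without Namalwa replicate 1 (0.0253), either array of L1236 (0.0461) or either array of HDLM2 (0.0489). Against SU-DHL-4 the call of PIK3CD ended without Reh replicate 2 (0.059) and when all probe sets were averaged (0.102).

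PIK3CG was 1.87 ± 0.50 log2 higher in SU-DHL-4 than in Namalwa (SE, adjusted p = 0.0452), and INPP5D 0.96 ± 0.26 log2 higher (SE, adjusted p = 0.0475). PIK3R5 was 1.17 ± 0.31 log2 higher in Reh than in SU-DHL-4 (SE, adjusted p = 0.0466), and 0.47 log2 when all probe sets were averaged (adjusted p = 0.27). These 3 calls were lost in 8, 13 and 11 of their 18 alternatives. Among arrays whose removal ended them were both of L428 and both of KM-H2 for all 3 genes (adjusted p = 0.0704 to 0.0823), both of HDLM2 for PIK3CG and INPP5D (0.0566 to 0.0692), both of L1236 for INPP5D (0.0785), Namalwa replicate 2 for PIK3CG (0.163) and INPP5D (0.151), and Reh replicate 1 (0.0676) and replicate 2 (0.118) for PIK3R5. PIK3CB differed by 0.92 log2 between SU-DHL-4 and Namalwa and did not pass (adjusted p = 0.102), but did without Namalwa replicate 1 (0.0242) or either array of Reh (0.0366). PIK3CG differed by 1.10 log2 between Reh and Namalwa and did not pass (adjusted p = 0.106), but did without Namalwa replicate 1 (0.0256) or either array of L1236 (0.0495).

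The order of the lines differed from gene to gene, and neighbours closer than the pooled SD of duplicates are named as not separated. For PIK3CG the order was L428, SU-DHL-4, Reh, Namalwa, L1236, KM-H2, L540, HDLM2 and L540Cy, where L428 was not separated from SU-DHL-4, nor L540, HDLM2 and L540Cy from each other (SD 0.50 log2). The largest step, 3.33 log2, lay between Namalwa and L1236. For INPP5D it was SU-DHL-4, Reh, Namalwa, L428, KM-H2, L540Cy, HDLM2, L1236 and L540, with KM-H2, L540Cy and HDLM2 not separated (SD 0.22 log2). For INPP4B it was L428, KM-H2 and L1236, with steps of 2.09, 1.57 and 1.26 log2 down to the next line, and then L540Cy, Namalwa, Reh, L540, HDLM2 and SU-DHL-4, which were not separated (SD 0.31 log2).

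For PIK3R5 the order was KM-H2, HDLM2, L1236, Reh, Namalwa, L428, L540, L540Cy and SU-DHL-4, and the last 5 were not separated (SD 0.28 log2). For PIK3CD it was HDLM2, KM-H2, L1236, L428, Reh, Namalwa, L540Cy, L540 and SU-DHL-4, with KM-H2 to Reh not separated, nor the last 3 (SD 0.27 log2). For PIK3R1, Reh was 0.56 log2 above L1236, and the other 8 lines followed each other by steps below the SD of 0.31 log2. PIK3CB, from SU-DHL-4 at 9.24 log2 to Namalwa at 8.32 log2, had 1 step above its SD of 0.28 log2, between HDLM2 and L540.

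Over the 9 line means, PIK3CG and INPP5D had the highest correlation among the 21 pairs of members (r = 0.79), followed by PIK3CD and PIK3R5 (r = 0.77). PIK3CG and PIK3R5, whose products form a complex, had r = -0.44. These are descriptions over 9 points, of which L540 and L540Cy share an origin. The most like and most opposite genes were sought among the 10472 genes whose line means spanned at least 1 log2. Extremes of so many genes over 9 points are no evidence of a link. The patterns most like that of PIK3CG were YTHDF3 (r = 0.97) and HERC2 (0.95), and the most opposite DIXDC1 (-0.97). For INPP5D they were CAPN15 (0.96) and BORCS7 (0.95), with MTUS1 opposite (-0.95). For INPP4B they were EYA1 and PHACTR3 (0.98 each), with THAP12 opposite (-0.97). For PIK3R5 they were MAF (0.96) and GSAP (0.95), with CENPV opposite (-0.95), and for PIK3CD TGFBR3 (0.97) and RALGAPA2 (0.96), with FAM210A opposite (-0.96). PIK3R1 was most like DDAH2 and ECHDC3 (0.92 each), with HOXB4 opposite (-0.94), and PIK3CB most like ZNF33B (0.86) and RAB21 (0.85), with SFXN5 opposite (-0.90).

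Other genes of the pathway were described from 6 lists. Of 108 genes tested besides the members, 6 were lower in the Hodgkin lines and 0 higher, 5.56% beside 1.36% of all genes, with a median difference of -0.13 log2. The lists were chosen with earlier results of these data known, so these shares are no test of the pathway. Of 24 receptors and adaptors that couple to PI3K, 4 were lower, 0 higher and 20 did not pass. The adaptor gene DOK3 fell by 6.04 ± 0.60 log2 (SE, adjusted p = 0.00493), the kinase gene SYK fell by 5.48 ± 0.14 log2 (SE, adjusted p = 6.03e-06) and BTK fell by 5.09 ± 0.22 log2 (SE, adjusted p = 7.71e-05). CD22, an inhibitory receptor of B cells, fell by 2.68 log2 (adjusted p = 0.0304), a call that ended without any line but Namalwa (up to 0.0924). It is also on the list of B cell markers. Of 21 genes of PH domain effectors, proteins that bind PIP3 or its products, BTK and PLCG2 were lower, 0 higher and 19 did not pass, and PLCG2, a phospholipase downstream of BTK, fell by 4.42 ± 0.40 log2 (SE, adjusted p = 0.0028). AKT1 had 0.51 log2 (adjusted p = 0.534).

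**Figure D5:**
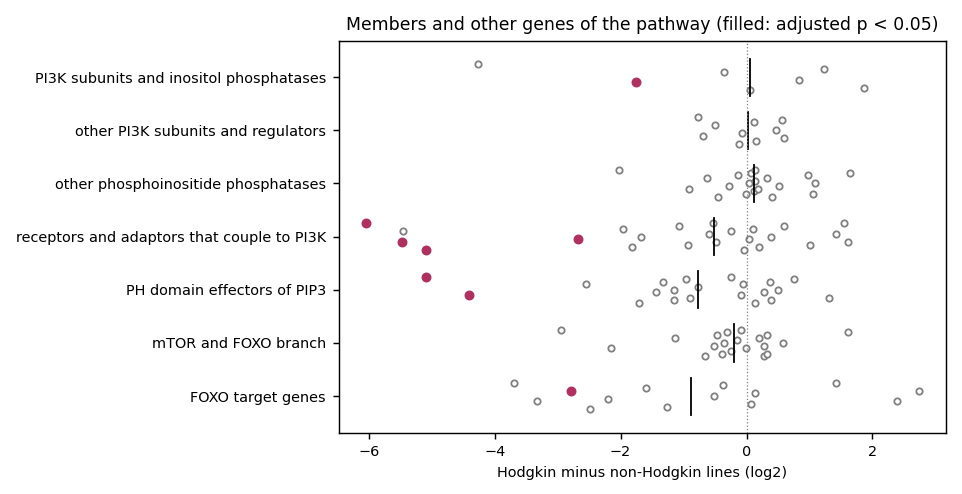
Difference in log2 between the 5 Hodgkin and 3 non-Hodgkin lines (x axis) of each gene (points) of the member list and of the 6 pathway lists (y axis), filled where the adjusted p is under 0.05, with the median of each list as a bar. The filled points all lie left of 0, at -1.75 log2 for INPP5D and down to -6.04 log2 for DOK3.

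No other PI3K subunit or regulator passed among 10, where PIK3R3 and PIK3C3 had -0.77 and -0.69 log2 (adjusted p = 0.261 and 0.596). PIK3IP1, an inhibitor of PI3K, had -0.50 log2 (adjusted p = 0.571). No other phosphoinositide phosphatase passed among 20, where INPP5A and INPP4A had -2.03 and 1.64 log2 (adjusted p = 0.29 and 0.365). INPPL1, which encodes the SHIP1 relative SHIP2, had -0.45 log2 (adjusted p = 0.415). None of 20 genes of the mTOR and FOXO branch passed, where DEPTOR had -2.95 log2 (adjusted p = 0.264) and FOXO1, a transcription factor that AKT keeps out of the nucleus, -2.15 log2 (adjusted p = 0.209). Of 14 FOXO target genes, INSR, the insulin receptor gene, fell by 2.79 log2 (adjusted p = 0.0432) and 13 did not pass. INSR lost its call without Reh replicate 1 and without any line but SU-DHL-4 (adjusted p up to 0.146), and without that array the pathway lists held 5 lower genes in place of 6.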

How the data were processed

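The authors deposited 1 log2 signal per probe set and array, made with RMA (background correction, quantile normalization and probe summary), per the submitters' processing notes, which give no version. RMA draws dim signals together, so differences between dim values are compressed. All 15 columns matched sample titles. Of 54675 probe sets, 41091 carried 1 symbol, 1801 several and 11721 none here, and 41037 matched RefSeq by Entrez ID. Each of 19735 genes took its brightest probe set.

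Line means were fitted with limma 3.58.1 in R 4.3.3 (lmFit, eBayes), with L540 and L540Cy averaged, for the groups of lines. The F test and the contrasts between lines used the 15 arrays with 1 mean per line and 6 residual degrees of freedom. P-values were Benjamini-Hochberg adjusted over all genes, with a threshold of 0.05, and the fits were tested on simulated data. Replicate differences of duplicated lines correlated between -0.07 and 0.36 over 15 line pairs, 10 of them over 0.1 and the 5 others all with Namalwa, so the replicate numbers, for which every pair had to exceed 0.1, were not taken as pairs. Lines were grouped by the labelled malignancy, and cell origin and the L540Cy relation are background knowledge. Alternatives were other probe set rules, another quantile normalization, median centring, a signal filter, a variance trend, block fits and leaving out lines or arrays.

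The members and lists were chosen with earlier results of these data known. Named were all analysed members, up to 3 called genes per list in each direction or otherwise the 2 largest differences, the 2 most like genes and the most opposite gene of each member, and a few fixed pathway and marker genes. CD22 was named after its values were seen.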

Additional observations from a re-analysis of the deposited data

Results flagged for a closer look

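PIK3CG had 1 line far from the others among the 5 Hodgkin lines of origin. L428, at 11.25 log2, lay 5.44 log2 above the next line in a range of 7.41 log2, a share of 0.734 of the range, where Dixon's 95% critical value for 5 values is 0.71. Both L428 arrays and all 3 PIK3CG probe sets showed it. Both ends of the 7 members were examined, and chance flags about 1 in 20 groups.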

How the results depend on the processing

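Of 1191 alternatives to 54 results about single members, 1061 kept direction and side of the threshold, 70 lost a call, 53 gained one and 7 changed sign. All sign changes were of PIK3CB between Hodgkin and non-Hodgkin lines, at -0.13 log2 when all probe sets were averaged, -0.32 with the most variable probe set, -0.056 without L428, -0.13 without Namalwa, -0.030 without Reh, and -0.062 to 0.17 when 1 array was left out, negative without Namalwa replicate 2 or Reh replicate 2. The number of the 7 members called between Hodgkin and non-Hodgkin lines was 1. It was 2 without L428, 0 without any other line, 0 with a trended and robust variance, 0 without L540Cy, and 0 to 1 when 1 array was left out. Between B-derived Hodgkin and non-Hodgkin lines it was 2 with the line as a random block over 15 arrays and 1 without L428, in place of 0. Between T-derived and B-derived Hodgkin lines it was 1 with that random block, in place of 0.

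For L1236 the number was 1 with the mean of all probe sets, 1 with the most variable probe set and 1 with a mean signal of at least 6 log2, in place of 0, and 0 to 2 when 1 array was left out. For SU-DHL-4 against Namalwa it was 1 with the mean of all probe sets, 0 with the most variable probe set, 1 after a second quantile normalization, 1 with a trended variance and 0 to 3 when 1 array was left out, in place of 2. For Reh against SU-DHL-4 it was 0 with the mean of all probe sets, 1 with the most variable probe set, 1 after quantile normalization, 1 after median centring, 1 with a trended variance and 0 to 2 when 1 array was left out, in place of 2. For Reh against Namalwa it was 1 with the most variable probe set and 0 to 4 when 1 array was left out, in place of 2, and for L540Cy against L540 0 to 1. The cause was not tested, but an array of a line outside a contrast bears only on the spread and the adjustment.

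The replicate block was fitted on the 12 numbered arrays, which lack L540, L540Cy and SU-DHL-4. Tests on them, but for Reh against Namalwa, hold fewer lines, and HDLM2 alone is T-derived. The numbers were not shown to pair samples: replicate differences correlated with those of Namalwa at -0.07 to 0.06. On these arrays 5 members were called for L428 with the block and 4 without, 3 and 2 for Reh against Namalwa, and 7 and 6 in the F test. The gains were PIK3CB for L428 (adjusted p = 0.0355) and in the F test (0.0419), and PIK3CG for Reh against Namalwa (0.0322). For L1236 both gave 3, INPP5D, INPP4B and PIK3R5, the last at -0.92 log2 in place of -0.34. Between B-derived Hodgkin and non-Hodgkin lines, with the line as a random block, 1 was called with the replicate block and 2 without. INPP5D passed with it (0.0419) and without it (0.0226), and INPP4B only without it (0.0445), a fit chosen after seeing the data, as was leaving out the array of L540. The count of all genes called between Hodgkin and non-Hodgkin lines, 268, was 570 with the replicate block, 690 without it, 1072 with the random block over 15 arrays, 423 with L540 and L540Cy as separate lines, 146 without Namalwa and 174 without SU-DHL-4. Between B-derived Hodgkin and non-Hodgkin lines, 181 genes became 732, 905 and 1049 in the block fits and 298 without Reh replicate 2. Between T-derived and B-derived lines, 39 genes became 445, 558 and 308 in those fits, 82 with L540 and L540Cy apart, 23 with the signal filter, 117 without HDLM2, 139 without L540, 18 without Namalwa and 23 without SU-DHL-4. Leaving out an array of the line tested lowered the count for L428, from 4546, to 2542 and 2310, for L1236, from 4562, to 2593 and 2451, for KM-H2, from 5348, to 3303 and 3317, and for HDLM2, from 4960, to 3208 without replicate 2. Without Namalwa replicate 1 the counts for Reh and SU-DHL-4 against Namalwa, 3147 and 1930, were 4750 and 3101, and without Reh replicate 1 that for Reh against SU-DHL-4, 1562, was 2856. For L540Cy against L540, 294 genes became 160 to 468 when 1 array was left out. Signals below the lower quartile limit claims on dim lines.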
